A study of Mus musculus with 6 samples.

Results

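The type 17 and IL-22 cytokine axis was described in the ileal mucosa through the 4 cytokine genes Il17a, Il17f, Il22 and Il23a, the 4 receptor genes Il23r, Il17ra, Il17rc and Il22ra1, and Il22ra2, the gene of a soluble receptor. Members were all probe sets whose platform symbol is exactly one of these 9 genes, which gave 8 probe sets for 6 genes, out of 45037 probe sets and 18193 named genes on the array. The measured members were the cytokine genes Il17a and Il23a (1 probe set each), the receptor genes Il17ra and Il17rc (2 each) and Il22ra1 (1), and Il22ra2 (1). For Il22 the annotation offered only a probe set that it also assigns to the neighbouring copy Iltifb, so this probe set is given apart and was counted nowhere. Il17f and Il23r were not analysed here.

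IL-23, a dimer whose specific chain is encoded by Il23a, is made by dendritic cells and macrophages and acts on lymphocytes that carry the receptor chain encoded by Il23r. These cells, T helper 17 cells, gamma-delta T cells and group-3 innate lymphoid cells, answer with IL-17A, IL-17F and IL-22. IL-17A and IL-17F are read by a receptor built from the products of Il17ra and Il17rc, while IL-22 is read on epithelial cells by the product of Il22ra1 together with the shared chain encoded by Il10rb, which leads to STAT3 activation and to antimicrobial and fucosylation genes. The product of Il22ra2, the IL-22 binding protein, is secreted and keeps IL-22 from its receptor. In the terminal ileum this axis is known for its dependence on resident bacteria.

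All mice were females of the 129S6 strain aged 3 months, either wild type (labelled wt) or duoxa-/-, a genotype that lacks the maturation factors which the dual oxidases need to reach the cell surface and release hydrogen peroxide. The 2 genotypes were littermates housed together in 3 cages, 1 litter per cage, and no treatment is named in the labels. Each cage gave 1 wt and 1 duoxa-/- pool of ileal mucosal RNA from 2 to 3 animals, and each pool was read on 1 single-colour array, so that there were 3 pools per genotype. Pooling hides the spread between animals, and 6 arrays limit the precision of every value.

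All values below are log2 summaries by the robust multi-array average (RMA), and the array medians lay at 6.55 to 6.60. Duoxa2, one of the 2 maturation factor genes, read 8.81, 8.36 and 7.24 in the wt pools of cages 1, 2 and 3 and 5.90, 5.55 and 5.92 in the duoxa-/- pools. Ileal identity was plain in all pools: the bile acid binding protein gene Fabp6 read 14.64 to 14.77 in wt and 14.66 to 14.83 in duoxa-/- pools, and the 11 epithelial markers had mean levels of 12.97 to 13.04 and 12.97 to 13.01. The wt pool of cage 1 stood apart: its 10 smooth muscle markers lay 0.46 above their mean over the 6 pools and its 9 B cell markers lay at -0.27. Over all probe sets, limma called 0 of 45037 (0% called) between the genotypes at an adjusted p under 0.05, and 2692 (5.98%) had an unadjusted p under 0.05. Duoxa2 itself, at -2.34 (SE 0.33), was not called either, with a limma adjusted p of 0.794. A missing call in this fit thus does not show that a gene was unchanged.

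Il17a was the member that varied most over the pools, and it spread more widely among the wt pools than among the duoxa-/- pools. Its probe set (1421672_at; gene at chr1:20730905-20734496 in GRCm38.p6) read 6.64, 7.995 and 7.07 in the wt pools of cages 1, 2 and 3. In the duoxa-/- pools it read 7.77, 7.99 and 7.28. The wt pool of cage 1 was the lowest of all, both pools of cage 2 were the highest, and the genotypes overlapped. The window of 250 bases before the Il17a start is printed because Il17a is the member whose level the results turn on; it comes from RefSeq (GRCm38.p6, chr1:20730655-20730904, plus strand), with motif matches in capitals.
Il17a: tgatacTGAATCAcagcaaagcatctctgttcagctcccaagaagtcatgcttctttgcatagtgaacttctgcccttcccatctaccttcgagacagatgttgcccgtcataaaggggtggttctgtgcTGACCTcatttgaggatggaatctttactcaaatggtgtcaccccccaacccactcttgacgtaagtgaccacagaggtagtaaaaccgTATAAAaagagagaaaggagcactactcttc
Searched on both strands, the window held the motif AGGTCA once, on the minus strand at bases -120 to -115 from the start, the half-site of nuclear receptors of the ROR family, which drive the type 17 programme; 14.0% of 32851 RefSeq promoter windows of this length held it. It held the motif TATAAA at bases -31 to -26 and, at bases -244 to -238, a match to TGANTCA. This is a loose form of the AP-1 motif that allows any middle base, and the match read TGAATCA. At any position and on either strand, 12.4% of the windows held TATAAA and 6.75% held TGANTCA. The STAT motif TTCNNNGAA, found in 7.02% of the windows, was not among its letters. Of the 3 measured members with a window in the table, Il22ra1 held TGANTCA once and Il17rc none of the 4 motifs. None of these matches overlapped another, and a match describes letters and not a bound site.

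The Il17a difference between the genotypes did not pass the test. The wt mean was 7.24 ± 0.69 and the duoxa-/- mean 7.68 ± 0.36 (SD, n = 3 pools each). Duoxa-/- minus wt was 0.45 (SE 0.31), 1.36-fold, with a 95% interval of 0.83-fold to 2.24-fold and a limma adjusted p of 0.810. This fit does not use the pairing of pools by cage. With cage as a replicate block the 95% interval was narrower, -0.03 to 0.92 in log2 units. The limma p was then 0.064 unadjusted and 0.740 adjusted. Within the cages the difference was 1.13, -0.01 and 0.21 for cages 1, 2 and 3, so that cage 1 supplied most of it. Without the wt pool of cage 1 the difference was 0.15, and without cage 1 it was 0.10; without the wt pool of cage 2 it was 0.82, with a limma adjusted p of 0.688. Among the wt pools alone, the pool of cage 2 read 2.55-fold above that of cage 1, a wider gap than the 2.19-fold between the 2 pools of cage 1.

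**Figure D1:**
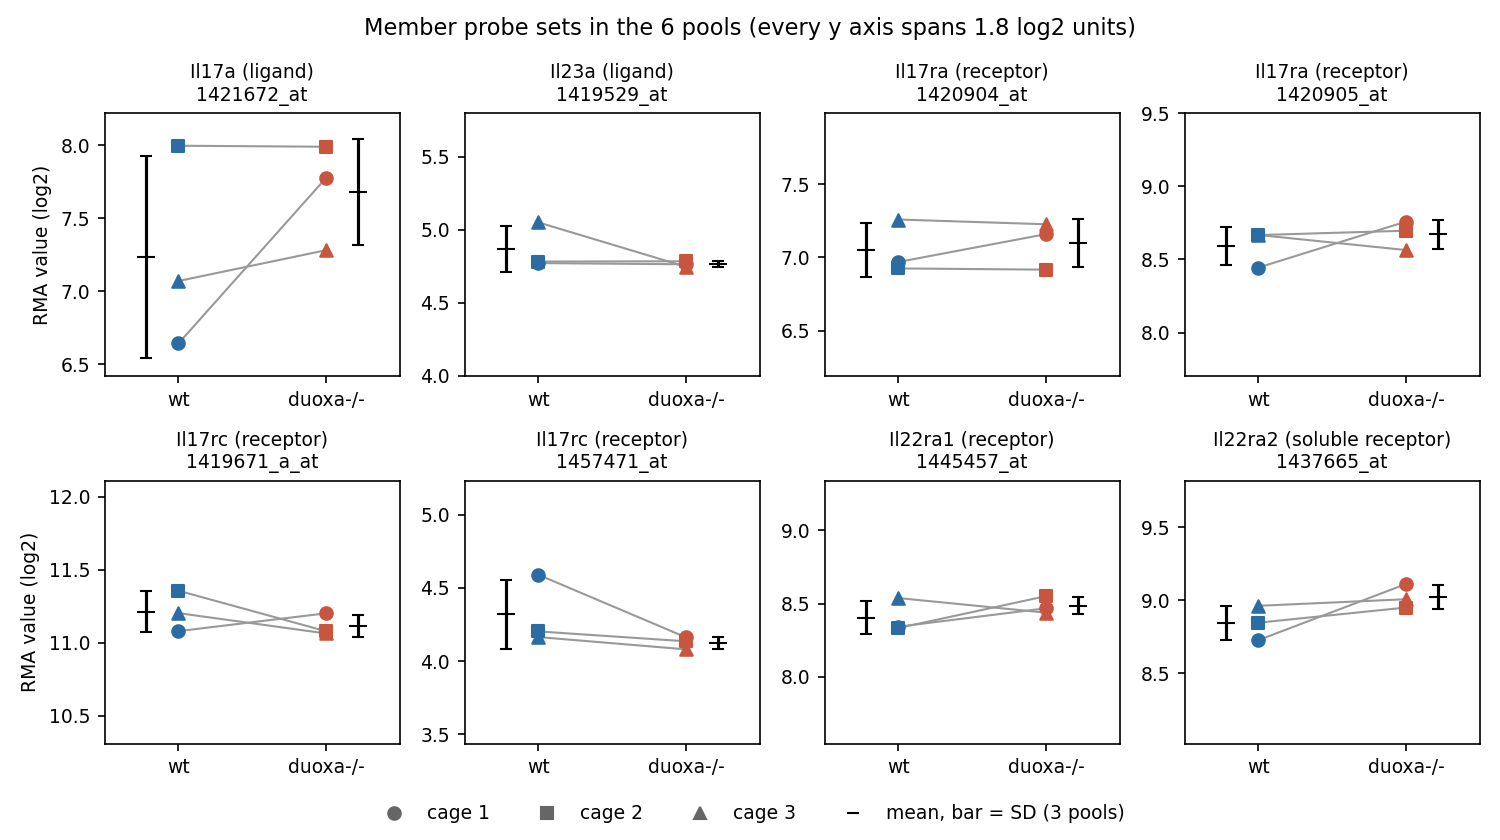
Level of each of the 8 member probe sets on the RMA log2 scale (y axis, 1.8 units in every panel) in wt and duoxa-/- pools (x axis); markers are pools, grey lines join the 2 pools of a cage, and black bars are the mean and SD of 3 pools. Il17a spans 6.64 to 7.995, while the other members stay within narrower bands.

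Differences between cages were tested with genotype in the fit. Il17a had an unadjusted p of 0.022 in limma's moderated F-test and was the 1 of 8 member probe sets under 0.05, against 5.55% of all probe sets. Its adjusted p was 0.877, and 0 members were called between cages, against 0.00222% of all probe sets, a single probe set that has no name here. The SD of Il17a over the 6 pools was 0.55, and 0.375% of all probe sets had an SD at least as large. To judge dim probe sets, 30 genes made in other organs such as retina, testis and lens were read from the same arrays: their mean levels ran from 3.87 to 7.49, with 1 of 30 at or above the 7.46 of Il17a, and their largest SD was 0.25. Probe sets differ in brightness for the same amount of RNA, so these levels serve to judge dimness and are not amounts.

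The profile of Il17a over the pools was set against all 19470 probe sets with 1 symbol whose mean reached the median of the array. The nearest was Pla2g5, a secreted phospholipase A2 gene that also stands on the list of IL-22 responsive genes below, at a root mean square distance of 0.05 between profiles centred on their own means. Pla2g5 read 6.55, 7.98 and 7.06 in the wt pools and 7.82, 7.93 and 7.30 in the duoxa-/- pools of cages 1, 2 and 3. Its low and high pools were those of Il17a, with the wt pool of cage 1 lowest and the pools of cage 2 highest. Next came Ceacam10, a carcinoembryonic antigen family gene, at a distance of 0.13, Ms4a6d, a membrane protein gene of myeloid cells, at 0.16, and the nucleic acid sensor gene Zbp1 at 0.17. These distances describe 6 pools that share 3 cages and carry no test.

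**Figure D2:**
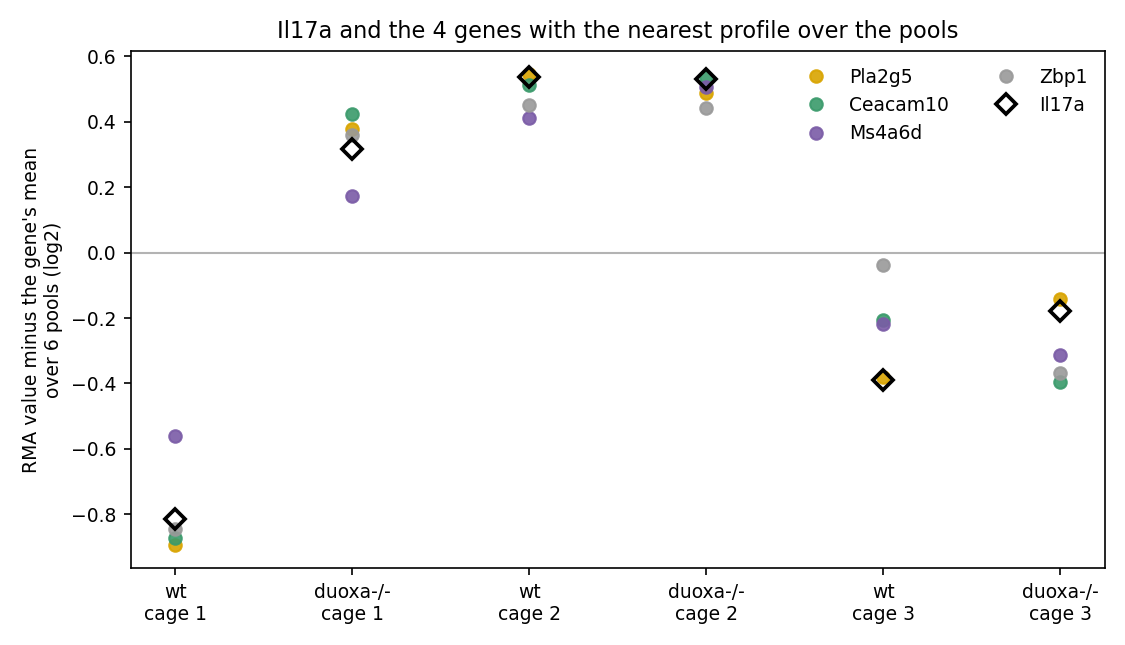
RMA value minus the gene's own mean over the 6 pools (y axis, log2) for Il17a and the 4 genes nearest to it, in the 6 pools (x axis). Pla2g5 follows Il17a at a distance of 0.05, and all 5 genes are lowest in the wt pool of cage 1.

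Il23a, the gene of the specific IL-23 chain, was dim. Its probe set (1419529_at; chr10:128296140-128298084) read 4.77, 4.78 and 5.05 in the wt pools and 4.76, 4.78 and 4.75 in the duoxa-/- pools. A single pool, wt of cage 3, lay above the other 5, which fell within a few hundredths of each other. The difference was -0.10 (SE 0.10; 95% interval -0.32 to 0.11; limma adjusted p = 0.845), and 18 of the 30 genes of other organs had mean levels at or above the 4.82 of Il23a. Of those 30 genes, 24 were lower in duoxa-/- pools, with a median difference of -0.09, near that of Il23a in size but not by cage. In cages 1, 2 and 3 the median of the 30 was -0.14, -0.03 and -0.09, and Il23a was at -0.01, 0.0021 and -0.30. Without cage 3 the Il23a difference was -0.0031. What part the shift of the 30 genes has in the Il23a difference was not tested. A change in Il23a was not detectable at this signal. In mixed tissue, fewer cells that make a transcript and less of it per cell cannot be told apart.

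The probe set shared by Il22 and Iltifb (1427624_s_at) was dim as well. It read 4.09, 4.18 and 3.99 in the wt pools and 4.38, 4.27 and 3.87 in the duoxa-/- pools. The duoxa-/- pools held both the highest and the lowest value. The difference was 0.08 (95% interval -0.22 to 0.38; limma adjusted p = 0.912), and no value of it can be assigned to Il22 alone.

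The receptor genes differed little between genotypes, and the largest receptor difference came from a dim probe set. Il17ra encodes the receptor chain shared by several IL-17 cytokines (chr6:120463181-120483731). Its brighter probe set (1420905_at) read 8.44, 8.67 and 8.67 in the wt pools and 8.76, 8.70 and 8.56 in the duoxa-/- pools. The groups overlapped, with the wt pool of cage 1 lowest, and the difference was 0.08 (SE 0.10; 95% interval -0.14 to 0.30; limma adjusted p = 0.873). Its other probe set (1420904_at) read 6.97, 6.93 and 7.26 in the wt pools and 7.16, 6.92 and 7.23 in the duoxa-/- pools. Here cage 3 was high in both genotypes, and the genotype difference was 0.05 (SE 0.12; limma adjusted p = 0.942). Both Il17ra probe sets were higher in the duoxa-/- pool of cage 1, by 0.31 and 0.19, and without cage 1 both turned, to -0.04 and -0.02.

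Il17rc encodes the chain that completes the IL-17A and IL-17F receptor (chr6:113471455-113483163). Its bright probe set (1419671_a_at) read 11.08, 11.36 and 11.20 in the wt pools and 11.20, 11.08 and 11.06 in the duoxa-/- pools. The duoxa-/- pool was higher in cage 1 and lower in cages 2 and 3, and the difference was -0.10 (SE 0.10; 95% interval -0.32 to 0.12; limma adjusted p = 0.848). The dim probe set of the same gene (1457471_at) read 4.59, 4.20 and 4.16 in the wt pools and 4.16, 4.14 and 4.08 in the duoxa-/- pools. All 3 duoxa-/- pools lay below all wt pools, the closest by a few thousandths, so this was the 1 of 8 member probe sets whose groups did not overlap, against 11.6% of all probe sets. Its difference was -0.19 (SE 0.12; limma adjusted p = 0.796) and it shrank to -0.06 without the wt pool of cage 1. Of the 30 genes of other organs, 26 had mean levels at or above the 4.22 of this probe set, and their median difference was -0.09.

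By the rule for likeness, this dim Il17rc probe set was also the receptor probe set with the largest SD over the pools (0.18), set by the wt pool of cage 1. Its nearest profiles were those of Hyou1, an endoplasmic reticulum chaperone gene, at a root mean square distance of 0.03, the epithelial sodium channel gene Scnn1a at 0.03, the zinc transporter gene Slc39a4 at 0.03 and the ribosome export factor gene Nmd3 at 0.04. All 4 were highest in that same pool, as in Slc39a4 at 12.05 against 11.45 to 11.58 in the other 5.

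Il22ra1, which encodes the IL-22 receptor chain of epithelial cells (1445457_at; chr4:135728159-135755383), read 8.34, 8.33 and 8.54 in the wt pools and 8.47, 8.55 and 8.44 in the duoxa-/- pools. The whole range over the 6 pools was 0.22 and the groups overlapped. The difference was 0.08 (SE 0.09; limma adjusted p = 0.863), with a 95% interval of 0.92-fold to 1.22-fold. None of the 30 genes of other organs had a mean level as high as its 8.44.

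Il22ra2, the gene of the soluble IL-22 binding protein (1437665_at, chr10:19622028-19634681), was the 1 member probe set that every cage showed higher in duoxa-/-, against 15.3% of all probe sets. The dim Il17rc probe set was the 1 that every cage showed lower, against 14.3%. Of all probe sets, 29.6% had 1 sign throughout. Among the 30 genes of other organs, 13 were lower in all 3 cages, so 14.3% is not a like share for a dim probe set. Il22ra2 read 8.73, 8.85 and 8.96 in the wt pools and 9.11, 8.95 and 9.01 in the duoxa-/- pools. The differences within cages were 0.38, 0.10 and 0.05, the groups overlapped by the wt pool of cage 3, and the overall difference was 0.18 (SE 0.09; 95% interval -0.03 to 0.39), 1.13-fold. With limma the unadjusted p was 0.086 and the adjusted p 0.794, the smallest among the members and equal to the smallest over all probe sets. The adjustment gave this same value to Duoxa2, whose unadjusted limma p was 7.6e-05. The shared adjusted value therefore does not rank Il22ra2 among the strongest differences. Without the wt pool of cage 1 the difference was 0.12, and without cage 1 it was 0.07.

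Cells that could make Il22ra2 were read beside it. The 13 measured markers of macrophages and dendritic cells, among which are known producers of the IL-22 binding protein, had mean levels of 8.11 to 8.35 in wt and 7.99 to 8.26 in duoxa-/- pools, with 8 of 13 lower and a median difference of -0.09. The smallest p among them belonged to Flt3, the growth factor receptor of dendritic cells (-0.20), and Itgax, the CD11c integrin gene (-0.30). Without the wt pool of cage 2 the median was 0.0021, with 7 higher and 6 lower, and without the duoxa-/- pool of cage 3 it was -0.0066, so leaving out either pool brought it close to 0. The 9 B cell markers, a sign of lymphoid follicles, ran from 8.09 to 8.40 in wt and from 8.34 to 8.55 in duoxa-/- pools, with 7 of 9 higher and a median of 0.23. Within cages 1, 2 and 3 the B cell median was 0.53, 0.04 and -0.03, and without cage 1 it was 0.0033, with 5 markers higher and 4 lower. The smallest p among them belonged to Cr2, the complement receptor 2 gene (0.29), and Ms4a1, the CD20 gene (0.37), while the lowest difference was -0.21. None of these probe sets was called, and their part in the Il22ra2 difference was not tested. Some of them were dim. The lowest single values were 5.12 among the macrophage and dendritic cell markers and 5.81 among the B cell markers. Mean levels of the 30 genes of other organs reached 7.49. Without dim probe sets, 10 of the 13 and 7 of the 9 markers remained.

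**Figure D3:**
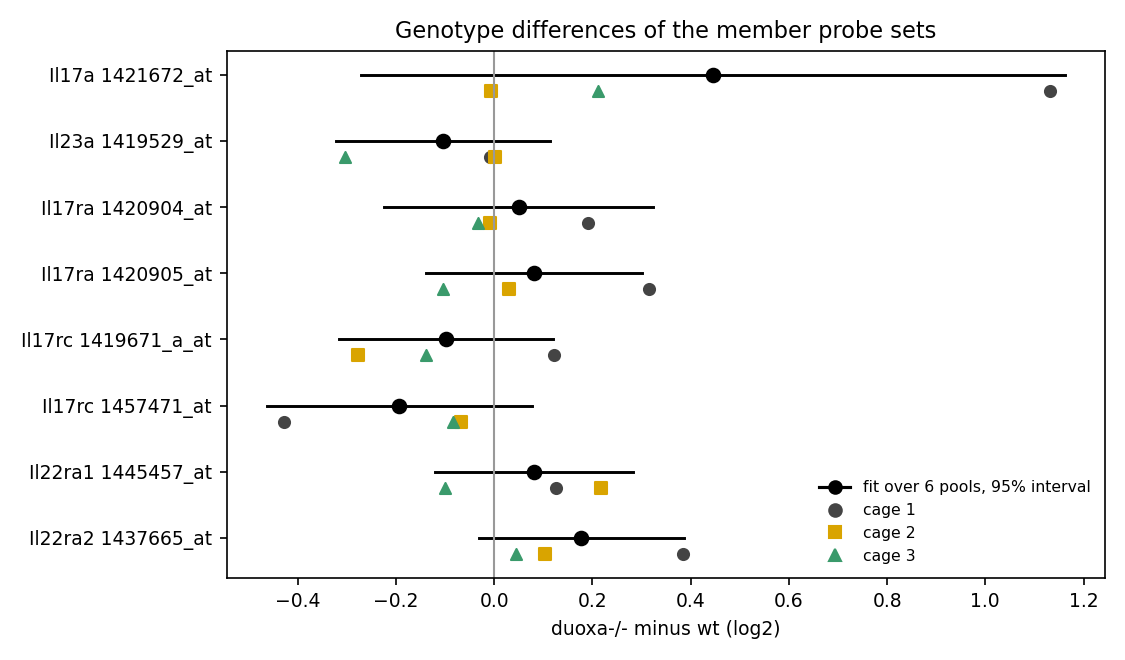
Duoxa-/- minus wt (x axis, log2) for the 8 member probe sets (y axis): black points and lines are the limma estimate and its 95% interval over 6 pools, coloured markers the difference within each cage. Every interval includes 0, and cage 1 gives the largest rise of Il17a at 1.13.

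Grouped by role, the members gave a higher median for ligands than for receptors, and the ligand value rested on Il17a. The 2 ligand probe sets had a median difference of 0.17, which is the midpoint of Il17a at 0.45 and Il23a at -0.10, and the 5 receptor probe sets had a median of 0.05, from -0.19 to 0.08. The median over all probe sets was 0.0013. By cage the ligand median was 0.56, -0.0024 and -0.05 and the receptor median 0.13, -0.01 and -0.10 in cages 1, 2 and 3. Both were highest in cage 1, and without that cage they were -0.02 for ligands and -0.04 for receptors. Without dim probe sets, which left Il17a as the 1 ligand, they were 0.45 and 0.07. Of the 8 member probe sets 5 were higher and 3 lower in duoxa-/- pools, where 50.4% of all probe sets were higher, 0 were called (0% of all probe sets) and 0 had an unadjusted p under 0.05. With cage as a replicate block, 0 members were called as well, with limma adjusted p between 0.740 and 0.912.

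The partners of the members and other IL-17 family genes were measured for 11 of 12 genes on the list, with 0 called in either direction (0% of genes), 3 higher and 8 lower and a median of -0.07, which was -0.0070 without cage 1 and -0.10 without cage 2. Il10rb, the chain that completes the IL-22 receptor, was steady at 11.33 to 11.48 in wt and 11.33 to 11.49 in duoxa-/- pools. The difference of Il10rb was -0.01 (SE 0.09). Il12b, the other chain of IL-23, differed by -0.11 and Il12rb1, the other chain of its receptor, by -0.14. Il17re, a receptor chain for IL-17C on epithelium, was at 0.12 and the cytokine gene Il17b at -0.16, the smallest p of the list.

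Of the inducing cytokines 7 of 8 were measured, 4 higher and 3 lower, with a median of 0.03 and 0 called. That median ran from -0.07 without cage 1 to 0.10 without the wt pool of cage 2. Il1b, the gene of interleukin-1 beta, a cytokine that favours the type 17 programme, read 6.23, 6.67 and 6.59 in the wt pools and 6.97, 7.22 and 6.86 in the duoxa-/- pools. All duoxa-/- pools of Il1b lay above all wt pools, where 11.6% of all probe sets had groups without overlap in either direction. The difference of Il1b was 0.52 (SE 0.14, limma adjusted p = 0.794). Tgfb1, the gene of transforming growth factor beta, which also takes part in the induction, differed by -0.39 (SE 0.20), with -0.66 and -0.62 in cages 1 and 2 and 0.11 in cage 3.

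Signalling genes downstream of the receptors and lineage transcription factors had medians of 0.02 (14 of 15 measured, 8 higher and 6 lower) and 0.03 (11 of 12 measured, 7 higher and 4 lower), with 0 called in both. Stat3, the transcription factor of both IL-23 and IL-22 signalling, differed by -0.12 (SE 0.08). Its groups did not overlap (10.67 to 10.79 in duoxa-/- and 10.79 to 10.90 in wt pools, apart in the next digit), as in 11.6% of all probe sets. Traf3ip2, the adaptor of the IL-17 receptor, differed by 0.04 (SE 0.12). Cebpb, a transcription factor of IL-17 signalling, was at 0.13. The feedback inhibitor gene Socs3 was at 0.14 (SE 0.23), with 0.84 in cage 1 against -0.35 and -0.08 in cages 2 and 3. Without cage 1, 0 of the 14 signalling genes were higher and 14 lower, with a median of -0.11. Without cage 2, 12 were higher and 2 lower, with a median of 0.14, and without the wt pool of cage 2 alone 11 were higher and 3 lower, also with 0.14. The direction of this list thus turned with the cage left out, and the median of the lineage factors likewise ran from -0.06 without the wt pool of cage 1 to 0.11 without that of cage 2. Among lineage factors, Runx1 (0.22) and the aryl hydrocarbon receptor gene Ahr (0.15), a ligand-activated factor that IL-22 producing cells need, had the smallest p.

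Genes known to respond to IL-22 in epithelium were higher for 13 of 16 measured genes, with a median of 0.14 and 0 called, where 46.1% of genes were higher. Higher in all 3 cages were 7 of 16, against 13.5% of genes. Part of this list was already known to be high in duoxa-/- pools from earlier work on these arrays, so its direction is not independent evidence. The C-type lectin genes Reg3b and Reg3g were near the top of the scale and moved little. Reg3g read 14.42, 14.70 and 14.45 in the wt pools and 14.64, 14.71 and 14.56 in the duoxa-/- pools, in which the wt pool of cage 1 was the lowest and the pools of cage 2 the highest, the same extremes as Il17a. The differences were 0.11 (SE 0.10) for Reg3g and 0.09 (SE 0.08) for Reg3b.

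Saa1, a serum amyloid gene, showed the same low and high pools over a wider span. It read 10.86, 13.40 and 11.57 in the wt pools and 13.05, 13.70 and 12.26 in the duoxa-/- pools, a difference of 1.06 (SE 0.59; limma adjusted p = 0.795). Its near-identical relative Saa2 may share its probes. Fut2, the fucosyltransferase gene of the epithelial surface, had another order, with 9.11, 9.63 and 8.07 in the wt pools and 9.39, 10.77 and 8.98 in the duoxa-/- pools. The difference of Fut2 was 0.78 (SE 0.49; limma adjusted p = 0.796). S100a9 and S100a8, which encode the calprotectin subunits and are also made by neutrophils, were at 0.63 and 0.59, carried by cage 2 at 1.43 and 1.09, and had the smallest p of the list. Without the wt pool of cage 1, 11 of the 16 genes were higher with a median of 0.06, and without cage 1, 12 of 16 with a median of 0.09. The median was larger without the wt pool of cage 2, at 0.34 with 14 of 16 higher, without the duoxa-/- pool of cage 3, at 0.29 with 11 of 16, and without cage 2 or cage 3, at 0.24 and 0.25.

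Genes known to respond to IL-17 were higher for 14 of 17 measured genes, with a median of 0.10 and 0 called, where 46.1% of genes were higher. Higher in all 3 cages were 4 of 17, against 13.5% of genes. Many of the list were dim: without dim probe sets 8 genes remained, all 8 higher, with a median of 0.15. The 46.1% includes dim genes, so it is not a like share for these 8. This list was also chosen with earlier results of these data known, so its direction is not independent evidence. Ccl20, the chemokine gene that draws CCR6-bearing type 17 cells, read 7.76, 8.07 and 7.89 in the wt pools and 8.90, 8.49 and 8.20 in the duoxa-/- pools. All duoxa-/- pools of Ccl20 lay above all wt pools, where 11.6% of all probe sets had groups without overlap in either direction. The difference of Ccl20 was 0.62 (SE 0.17, 95% interval 0.24 to 1.01, limma adjusted p = 0.794). Steap4, a metalloreductase gene, was at 0.26 (SE 0.13). The neutrophil chemokine gene Cxcl1 (0.04, SE 0.09) and Pigr, the gene of the receptor that carries IgA across the epithelium (0.01, SE 0.09), moved little. Without cage 1 the list had 8 of 17 genes higher and a median of -0.01, and without the duoxa-/- pool of cage 3 it had 14 of 17 and a median of 0.21.

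**Figure D4:**
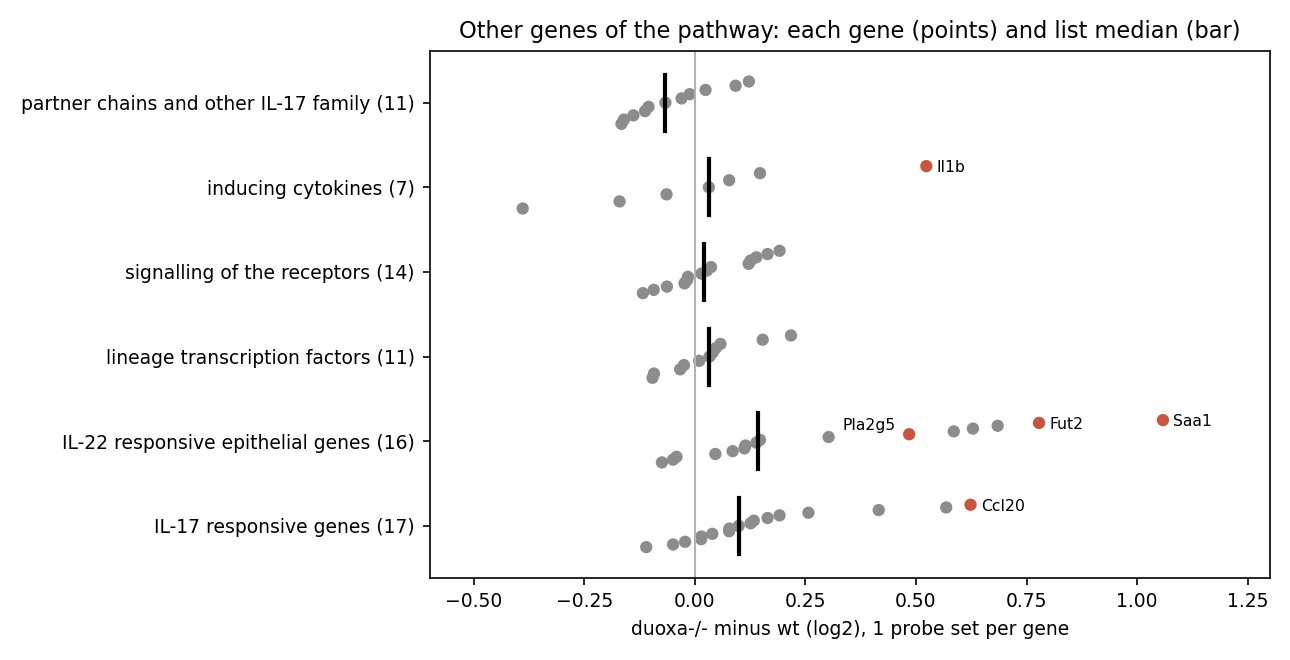
Duoxa-/- minus wt (x axis, log2) of the genes on 6 pathway lists (y axis, number measured in brackets); points are genes, bars are list medians. The IL-22 responsive genes have the highest median at 0.14, with Saa1 at 1.06, and 0 genes were called in any list.

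Markers of the cells that make these cytokines were read beside Il17a. The 13 measured markers of type 17 lymphocytes and group-3 innate lymphoid cells had mean levels of 8.54 to 8.67 in wt and 8.67 to 8.72 in duoxa-/- pools, with 8 of 13 higher, a median of 0.05 and 0 called. Their lowest single value was 5.09. The smallest p belonged to Tnfsf11, the RANK ligand gene (0.37, SE 0.13), and Ltb, the lymphotoxin beta gene (0.33, SE 0.14). The other 5 of 13 that were not higher went lower, down to a difference of -0.28. Ccr6, the receptor for the Ccl20 product, read 8.71, 8.92 and 9.33 in the wt pools and 9.28, 9.33 and 9.31 in the duoxa-/- pools, a difference of 0.32 (SE 0.14). In the wild type it was thus high in cage 3, where Il17a was not. Some of these markers are also carried by B cells and follicle stroma, and without the wt pool of cage 1 the list median was 0.0040, against 0.12 without cage 2.

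The 10 T cell markers had mean levels of 7.79 to 8.24 in wt and 7.84 to 8.06 in duoxa-/- pools, with 8 of 10 lower and a median of -0.10; Thy1 (-0.25) and Cd4, the helper T cell coreceptor gene (-0.21), had the smallest p. Without cage 2 the direction turned, with 6 of 10 higher and a median of 0.10, and without the wt pool of cage 2 alone 5 were higher and 5 lower. Without cage 1 the median was -0.30. By pool their deviation was -0.17 in the wt pool of cage 1 and 0.28 in the wt pool of cage 2, the pools in which Il17a was lowest and highest, and -0.12 in the duoxa-/- pool of cage 2, in which Il17a was also high. Only 3 of 9 gamma-delta T cell markers were measured, with a median of 0.05, which turned to -0.09 without cage 1. The 10 smooth muscle markers lay at 0.46 in the wt pool of cage 1 and -0.33 in its duoxa-/- partner, opposite in sign to Il17a at -0.82 and 0.32. The part of these cell type markers in the Il17a values was not tested. The 16 IL-22 responsive genes lay at -0.41, 0.24 and -0.30 in the wt pools and 0.09, 0.46 and -0.08 in the duoxa-/- pools of cages 1, 2 and 3, where Il17a lay at -0.82, 0.54 and -0.39 and at 0.32, 0.53 and -0.18. That list holds Pla2g5, the nearest profile to Il17a, and Saa1, and was partly known beforehand to be high in duoxa-/- pools. Its likeness to Il17a is therefore not independent evidence.

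**Figure D5:**
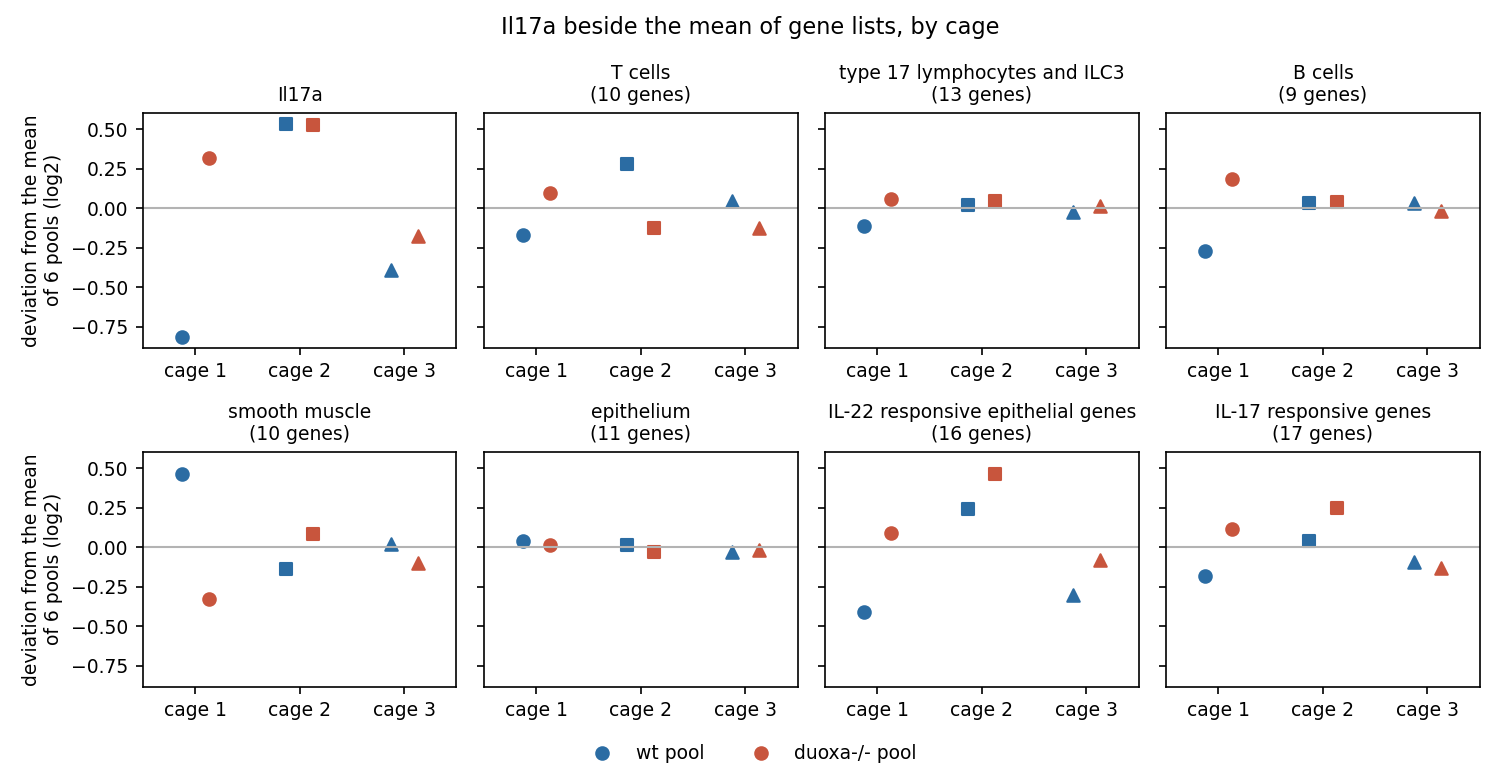
Deviation from the mean of 6 pools (y axis, log2) of Il17a and of the mean of 7 gene lists, by cage (x axis) and genotype (colour). Il17a and the IL-22 responsive genes are lowest in the wt pool of cage 1, at -0.82 and -0.41, while smooth muscle genes are highest there at 0.46.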

How the data were processed

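Ileal mucosal RNA of 6 pools was read on single-colour Affymetrix arrays. The deposited values are log2 probe set summaries that the authors computed by RMA (affy package), as the submitters' processing notes record; on this scale differences of dim probe sets are compressed. No version or setting is given in the sources used here, and no intensities or detection calls were used. Of 45101 rows, 64 controls were left out; 34945 probe sets had 1 gene symbol, 932 several and 9160 none. Gene identifiers matched the RefSeq table of GRCm38.p6 for 34741, and 0 symbols changed.

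Duoxa-/- minus wt was tested on all 45037 probe sets with limma 3.58.1 in R 4.3.3 (two-sided, lmFit and eBayes, no cage term, called at a Benjamini-Hochberg adjusted p under 0.05); cages were compared by its moderated F-test, genotype being in the model. SE and intervals are limma's. The fit was tested on simulated data of independent pools. For the genotype fit these held no difference between cages and no outlying pool, so the simulation does not cover those features. The series' design text makes each cage a litter, so the pools are paired; a cage's 2 deviations from the group means correlated across probe sets with r of -0.15, 0.07 and 0.29 in cages 1, 2 and 3. The p values of the main genotype fit rest on the spread between pools within a genotype. Those of the cage test and of the cage block rest on the spread left after genotype and cage.

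Members, lists and tests were chosen with earlier results of these data known. For other lists each gene was read by its brightest probe set. The text names all members, a set of pathway genes listed with the design, the 2 genes of smallest p of most lists, and the 4 nearest profiles to the most variable ligand and receptor. Fabp6 and Saa2 were added after values were seen. Lists of neutrophils (10 measured, median -0.04) and ileal enterocytes (6 measured, median 0.02) also had 0 calls. Tables were made with Python 3.11.15 and pandas 2.3.3, figures with matplotlib 3.10.9. Alternatives were the cage block, 1 probe set per gene, a filter on dim probe sets, a variance trend, array weights, 2 other scalings, no cross-hybridising probe sets, and leaving out each pool or cage; the same alternatives for the lists were added after seeing the data.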

Additional observations from a re-analysis of the deposited data

How the results depend on the processing

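Under 17 alternatives of the genotype fit, 0 member probe sets were called, and of 132 member differences 128 kept their direction. The 4 that turned were Il17ra: its 1420904_at without cage 1 or when the wt pool of cage 2 or the cage 3 duoxa-/- pool was left out, and its 1420905_at without cage 1. The Il17a difference ran from 0.10 to 0.82 and that of Il22ra2 from 0.07 to 0.24. The ligand median ran from -0.02 to 0.45 and the receptor median from -0.04 to 0.12. Leaving out single pools gave 0 to 1 calls over all probe sets between genotypes, the 1 being Duoxa2 without the wt pool of cage 3 (limma adjusted p = 0.0158). With cage as a replicate block, 0 probe sets were called, 2971 had an unadjusted p under 0.05, and no call of a member changed; the SE of Il17a was then 0.20. Between cages, 1 probe set was called; it was 2 with 1 probe set per gene, 5 with a variance trend, 3 with arrays centred on their medians and 1 to 16 when single pools were left out, with 0 members called in each. The cause was not tested. Dim probe sets (Il23a, the second Il17rc set) bound what can be seen, as RMA compresses them.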
